A study of Drosophila melanogaster with 16 samples.

Results

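Among the transcripts measured in Drosophila cardiac tubes, 92 of 16637 had a mean under a fixed brightness limit in 10-day-old flies and were brighter in every sample of 40-day-old flies than in any 10-day sample. They were chosen on the measured values: a 40-day mean at least 1 above the 10-day mean on the log2 scale, the lowest 40-day sample above the highest 10-day sample, and a 10-day mean under 8.5, with 6 transcripts that met these limits left out of a list of 98. Because the difference between the ages chose them, that difference is described here and not tested. The names of 89 transcripts were known through their probes, and these belong to 85 genes, since cib, Sdc, fax and CG8620 are each present with a pair of transcripts. The other 3 transcripts have no gene name here. Names exist only for transcripts that the study listed as changed. An unnamed gene of a list below was therefore not looked up, whether or not it was measured.

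The cardiac tube is the tubular heart that pumps haemolymph along the back of the fly, and the study compared aging with young hearts to find genes that change with cardiac age. Tubes were hand dissected from adult males of a w1118, Canton S isogenic line, without any mutation, transgene or treatment that differed between the ages, and the flies lived in groups of 30 at 25°C with 60% humidity. There were 4 biological replicates (A to D) of 40 days and 4 of 10 days, each a pool of tubes whose RNA was measured in both dyes, Cy3 and Cy5, on 8 arrays that set a 40-day against a 10-day sample. A value is therefore an average over several hearts with whatever tissue remained attached to them, and more RNA per cell cannot be told apart from more cells of a kind.

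Many of the genes belong to innate immunity. Insects meet microbes with recognition proteins that bind bacterial cell wall (the PGRPs), with cascades of secreted serine proteases and their inhibitors (serpins), and with short antimicrobial peptides that are released into the haemolymph. The peptides are induced through the Toll and Imd pathways, both of which end in NF-kappaB factors, and a further branch through Sting, a sensor of cyclic dinucleotides, induces antiviral genes. Such effectors are typically low in unchallenged tissue and inducible by orders of magnitude.

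Levels are given as log2 of the deposited intensity, averaged over the 8 probes of a transcript and over both dyes. The rise of the members, their 40-day mean minus their 10-day mean, had a median of 1.44 on this scale and ran between 1.0 and 4.4, beside a median of 0.009 over all transcripts. Their 40-day means lay between 7.20 and 12.5 with a median of 8.69, and their 10-day means between 5.95 and 8.45 with a median of 7.20. The rise was at least 2 in 19 members and under 1.5 in 49. By construction no member overlapped between the ages, which was the case upward for 3.29% of all transcripts and downward for 2.24%, and a rise of at least 1 was seen in 1.35%.

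**Figure D1:**
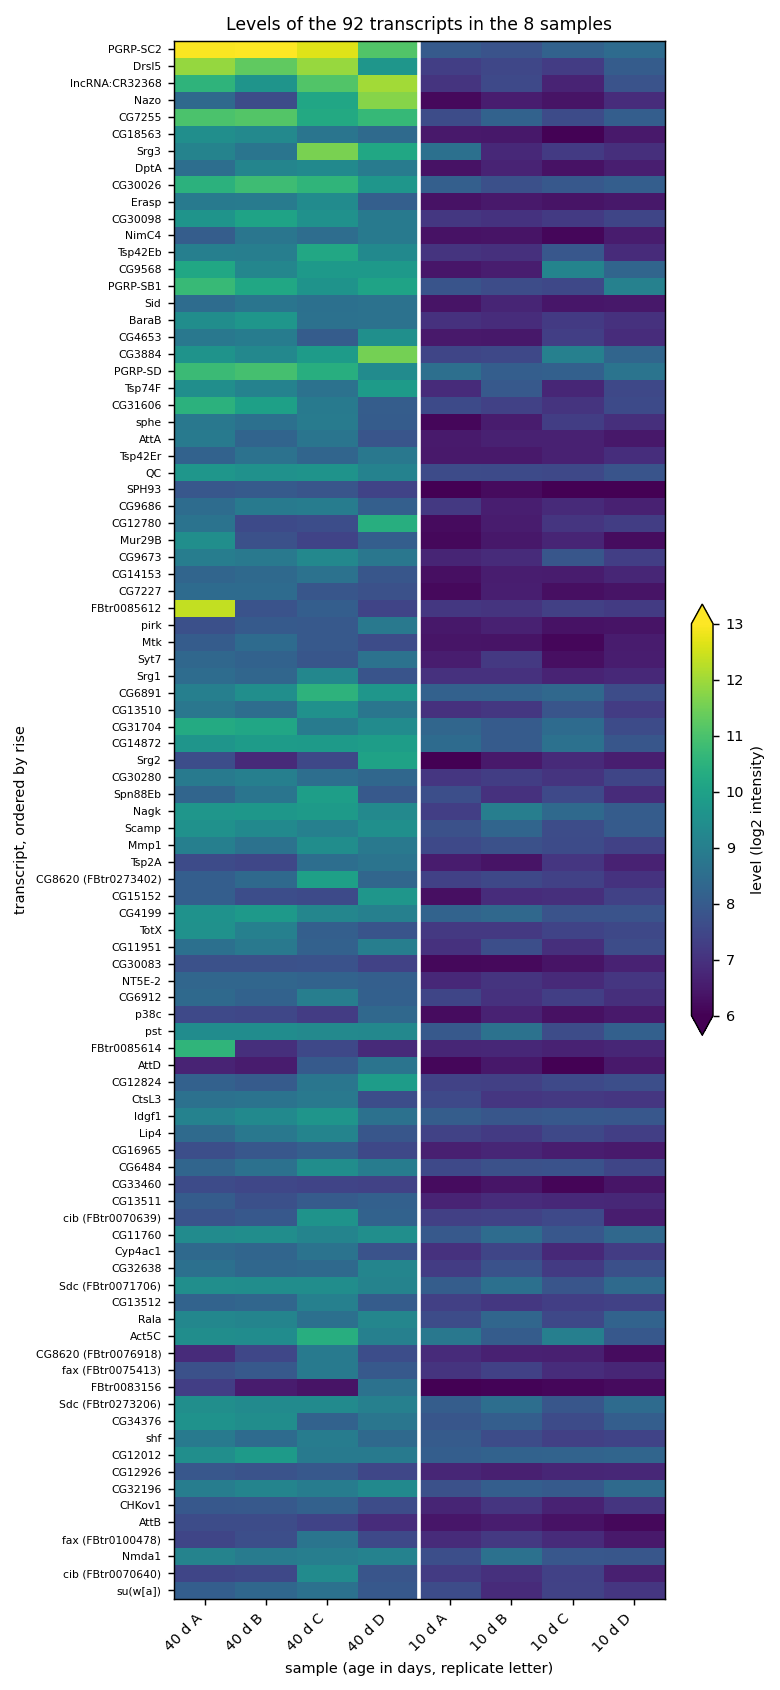
Log2 intensity of each of the 92 transcripts (rows, ordered by rise) in the 4 samples of 40 days (left) and the 4 of 10 days (right), with the colour scale from 6 to 13. The 40-day columns are brighter in every row, as the selection requires, and single 40-day cells stand out, such as FBtr0085612 at 12.37 in sample A.

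How near to background the 10-day values lay was read against the random control probes of the arrays. The 95th percentile of these probes lay between 7.07 and 7.37 in the samples of 40 days and between 6.95 and 7.33 in those of 10 days. It was taken over single probes, while a transcript's level is a mean of probes, which varies less. A level below this limit may therefore still lie above background. In 31 members all 4 samples of 10 days were below it, in 30 members some were, and in 31 members none was. At 40 days no sample was below it in 85 members and at least 1 sample was in 7. Over all transcripts, 69.5% were below it in all 4 samples of 40 days and 67.6% in all 4 of 10 days. Read on the 4 probes nearest the 3′ end, all 4 samples of 10 days were below it in 21 members and none was in 42. On the mean of all probes, and by this single-probe limit, "near background at 10 days" thus holds for about as many members as it fails for. On the 3′ probes it holds for fewer. Where all 4 samples of 10 days were below that level, the fold change is given as a lower bound, in which each 10-day sample was set to the 95th percentile of its own control probes. With these 31 members at their bound, the median rise was 1.26.

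The peptidoglycan recognition proteins included the member with the largest rise. PGRP-SC2, an amidase that cleaves peptidoglycan and dampens Imd signalling, read 12.97, 13.26, 12.67 and 11.11 in the samples A to D of 40 days, against 7.99, 7.79, 8.21 and 8.44 in those of 10 days. The means were 12.5 ± 0.96 at 40 days and 8.11 ± 0.28 at 10 days (SD, n = 4 each), 21.1-fold apart, and all 8 probes separated the ages. Sample D was the lowest of the 40-day samples and the highest of the 10-day samples, and still the ages lay 2.67 apart.

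PGRP-SD, a secreted recognition protein, read 10.77, 10.94, 10.38 and 9.39 at 40 days, against 8.57, 8.10, 8.15 and 8.69 at 10 days. PGRP-SB1, also an amidase, read 10.71, 10.17, 9.59 and 10.05 at 40 days, against 7.81, 7.64, 7.51 and 9.08 at 10 days. These differences were 1.99 and 2.12, none of the 10-day samples was below the control level for either gene, and the 10-day sample D of PGRP-SB1 stood closest to the 40-day values. The family list held 13 genes, of which 7 had a name here and 3 were members. The immediate relatives of PGRP-SC2 moved less: PGRP-SC1a differed by 0.76 and PGRP-SC1b by 0.64.

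Of 29 antimicrobial peptide genes listed, 16 could be named and 6 were members: Drsl5, DptA, AttA, Mtk, AttD and AttB. Drsl5, a paralogue of the antifungal peptide Drosomycin, read 11.89, 11.28, 11.93 and 9.69 at 40 days, against 7.31, 7.50, 7.25 and 8.03 at 10 days. The difference was 3.67, or 12.8-fold, with all 8 probes separating the ages and again sample D lowest at 40 days and highest at 10 days.

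DptA, a Diptericin directed against Gram-negative bacteria, read 8.54, 9.18, 9.31 and 8.92 at 40 days, against 6.35, 6.69, 6.35 and 6.59 at 10 days. Every 10-day sample was below the control level, so the change of 2.49 is given as at least 3.56-fold. Mtk (Metchnikowin), an antifungal and antibacterial peptide, read 8.05, 8.44, 7.95 and 7.64 at 40 days, against 6.39, 6.37, 6.12 and 6.54 at 10 days. It was at least 1.82-fold higher, and its 8 probes all separated the ages with a narrow spread of differences, 1.40 to 1.93.

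The Attacins are glycine-rich peptides against Gram-negative bacteria. AttA read 8.86, 8.25, 8.72 and 7.84 at 40 days, against 6.5, 6.63, 6.65 and 6.45 at 10 days, which is at least 2.40-fold. AttB, its direct neighbour in the genome and a close copy, read 7.62, 7.63, 7.40 and 6.89 at 40 days, against 6.43, 6.56, 6.35 and 6.14 at 10 days, at least 1.17-fold. How far probes for this pair bind both transcripts was not tested, so their separate values are uncertain. AttD, which lacks a signal peptide, behaved differently among the samples: it read 6.69, 6.52, 7.99 and 8.69 at 40 days, against 6.13, 6.45, 5.88 and 6.49 at 10 days. Samples A and B of 40 days were thus below the control level, the ages were separated by only 0.03, and 2 of its 8 probes separated them.

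**Figure D2:**
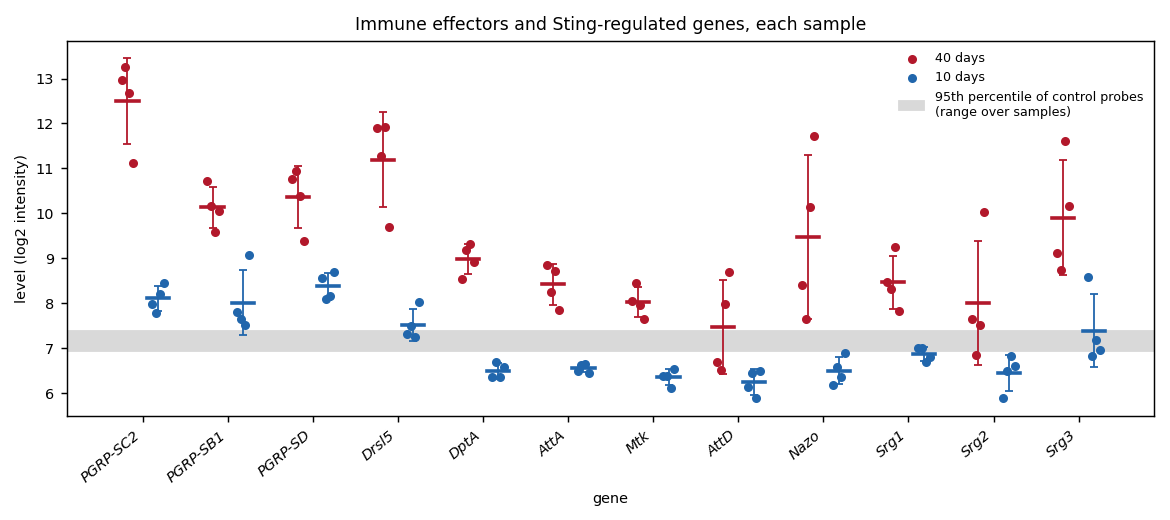
Log2 intensity of 12 immune genes in each sample (dots; 40 days red on the left, 10 days blue on the right of each pair), with the mean (bar) and SD (error bar, n = 4) and the range of the 95th percentile of the control probes (grey band). PGRP-SC2 lies highest at 40 days, the peptides DptA, AttA, Mtk and AttD lie under the band at 10 days, and AttD, Nazo, Srg2 and Srg3 spread widely at 40 days.

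BaraB, a gene of the Baramicin family whose own part in immunity is not shown here, read 9.43, 9.67, 8.62 and 8.65 at 40 days. At 10 days it read 7.0, 6.88, 7.18 and 7.01, a difference of 2.08. Among the regulators, pirk, an inhibitor of Imd signalling that is itself induced by the pathway, read 7.71, 7.98, 7.96 and 8.83 at 40 days, against 6.46, 6.64, 6.35 and 6.36 at 10 days. That is a rise of at least 1.96-fold, and pirk was the 1 member among the 3 named genes of the Imd list. The other two, imd itself and key, differed by 0.77 and 0.56, and limma called none of the 3, pirk included, at an adjusted p under 0.01.

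A group of genes carries names for their dependence on Sting. Nazo, which encodes an antiviral effector of that branch, read 8.40, 7.64, 10.13 and 11.72 at 40 days, against 6.19, 6.57, 6.36 and 6.89 at 10 days. All 10-day samples were below the control level and the change was at least 4.99-fold, but the 40-day samples themselves covered 4.08 on the log2 scale, the second widest range of any member. Srg3 read 9.12, 8.73, 11.60 and 10.16 at 40 days, against 8.58, 6.82, 7.18 and 6.95 at 10 days.

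The ages of Srg3 lay only 0.15 apart, and the 10-day sample A stood alone near the 40-day samples A and B. Srg1 read 8.48, 8.31, 9.25 and 7.82 at 40 days, against 7.01, 7.01, 6.70 and 6.80 at 10 days, at least 2.48-fold. Srg2 read 7.65, 6.84, 7.51 and 10.02 at 40 days, against 5.89, 6.49, 6.83 and 6.60 at 10 days. The change was at least 1.81-fold and the difference 1.55, or 0.88 without sample D, and the 40-day sample B exceeded the highest 10-day sample by 0.01. The highest 40-day sample was D for Nazo and Srg2 and C for Srg1 and Srg3, so these 4 genes did not share an order of samples.

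The serine protease family was the largest group by count. A list of 18 symbols, drawn from the study's own induced genes and so no independent evidence of direction, held 17 transcripts, of which 9 were members: CG18563, Erasp, CG30098, CG4653, sphe, SPH93, CG9673, CG30083 and CG33460. CG18563 read 9.47, 9.29, 8.73 and 8.41 at 40 days, against 6.49, 6.46, 6.05 and 6.47 at 10 days, at least 3.53-fold. SPH93, a protease homologue, read 7.89, 7.97, 7.85 and 7.40 at 40 days, against 5.96, 6.2, 5.77 and 5.88 at 10 days.

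SPH93 and CG18563 are adjacent in the RefSeq annotation of Release 6, and their samples of 40 days each stayed within about 1 log2 unit. For SPH93 the mean hides unequal probes, whose differences ran between 0.07 and 6.78. Its 4 probes nearest the 3′ end averaged 9.57 at 40 days and 6.22 at 10 days, and its 4 nearest the 5′ end averaged 5.98 at 40 days and 5.68 at 10 days.

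A run of 3 adjacent genes held sphe, CG9673 and CG4653. The protease homologue sphe (spheroide), placed upstream of Toll activation, read 8.80, 8.59, 8.90 and 8.05 at 40 days, against 6.12, 6.53, 7.27 and 6.93 at 10 days. CG9673 read 8.97, 8.82, 9.27 and 8.77 at 40 days, against 6.72, 6.85, 7.87 and 7.31 at 10 days. CG4653 read 8.81, 8.94, 8.03 and 9.48 at 40 days, against 6.49, 6.44, 7.29 and 6.90 at 10 days.

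At 10 days the 3 neighbours had the same order of samples at the top, with C highest and D next, while at 40 days CG4653 was lowest in C, where the other two were highest. Among the further proteases, Erasp differed by 2.41 (at least 3.19-fold) and CG30098 by 2.31, and CG30083 and CG33460 were at least 1.42-fold and 1.25-fold higher. Erasp and CG33460 lie with 2 genes between them. Of 81 member genes that could be placed in the annotation, 11 lay within such a distance of another, in 6 pairs of which 5 were adjacent.

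Other extracellular inhibitors and stress proteins were fewer. Spn88Eb, a serpin, read 8.28, 8.73, 9.92 and 7.95 at 40 days, against 7.67, 7.01, 7.55 and 6.87 at 10 days, with sample C 1.18 above the next. It was the only member among 4 named serpin genes, and its list neighbour Spn88Ea differed by 0.56. TotX, a Turandot protein secreted under stress, read 9.55, 9.04, 8.12 and 7.81 at 40 days, against 7.16, 7.15, 7.42 and 7.53 at 10 days. TotA and TotC differed by 2.28 and 2.77 but were brighter than the limit at 10 days, with means of 9.79 and 9.26. At an adjusted p under 0.01, limma called none of the 4 named transcripts of this list, TotX included.

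Uptake of dead cells was represented by NimC4, a receptor of phagocytes and glia for apoptotic cells. It read 8.06, 8.76, 8.49 and 8.87 at 40 days, against 6.35, 6.36, 6.12 and 6.54 at 10 days, at least 2.63-fold. Haemocyte markers were mixed over the same samples, with 4 of the 5 named lower at 40 days and crq, a scavenger receptor, higher by 0.67. Hml, a clotting protein of plasmatocytes, read 8.35, 8.04, 7.56 and 7.36 at 40 days, against 9.49, 9.0, 8.99 and 9.86 at 10 days, and PPO2, the crystal cell prophenoloxidase, differed by −1.44, Sr-CI by −0.69 and Pxn by −0.28.

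The list held 11 markers, the median difference of the 5 named was −0.69, and their mean level lay between 7.05 and 7.24 in the samples of 40 days and between 7.71 and 7.98 in those of 10 days. Only transcripts that the study listed as changed have names, so these 5 markers are no measure of haemocyte content. Whether the number of attached haemocytes has a part in any member's level was not tested. Sid, a stress-induced nuclease, was even among the samples of 40 days, with a range of 0.23. It read 8.48, 8.71, 8.59 and 8.63 at 40 days, against 6.37, 6.72, 6.42 and 6.44 at 10 days, at least 2.73-fold.

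The tetraspanins, membrane proteins that organise partners in the plane of the membrane, gave 4 members among 10 named genes of 35. Tsp42Eb read 9.01, 9.0, 10.20 and 9.33 at 40 days, against 7.06, 6.97, 7.91 and 6.87 at 10 days. Tsp42Er read 8.20, 8.65, 8.28 and 8.80 at 40 days, against 6.47, 6.48, 6.65 and 6.91 at 10 days, with all 8 probes separating the ages. Both belong to a cluster of tetraspanin genes at 1 locus, where 6 further named genes were at or above the 10-day limit or overlapped between the ages.

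Tsp74F read 9.45, 9.11, 8.63 and 9.85 at 40 days, against 6.86, 7.95, 6.74 and 7.53 at 10 days, a difference of 1.99. Tsp2A, a tetraspanin of the smooth septate junctions that seal the gut and renal epithelia, read 7.60, 7.49, 8.54 and 8.68 at 40 days, against 6.53, 6.38, 7.12 and 6.67 at 10 days. Samples C and D of 40 days were about 1 above A and B. Only transcripts that the study listed as changed have names. Tsp2A was also the only member among the 4 named of 39 midgut markers. The mean level of these 4 lay between 9.10 and 9.43 in the samples of 40 days and between 7.78 and 7.94 in those of 10 days, with differences of 3.51 in Ssk, a further septate junction protein, 1.40 in Tsp2A, 0.64 in LManII and 0.03 in Myo31DF.

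A renal tubule marker was uneven among the samples. Uro, a urate oxidase restricted to the Malpighian tubules, read 7.25, 6.92, 10.91 and 10.02 at 40 days, against 6.90, 7.10, 6.59 and 7.01 at 10 days, and it was the only named marker of 11 for that organ. Samples C and D of 40 days stood above A and B in 13 members (14.1%), against 27.3% of all transcripts, among them Nazo, Srg3, AttD, Tsp2A, Tsp42Eb and the noncoding RNA CR32368. Samples A and B stood above C and D in 22 members (23.9%), against 11.1% of all transcripts, among them PGRP-SC2, PGRP-SD, PGRP-SB1, Mtk and TotX. Uro did not pass the test (adjusted p = 0.49 in limma). No other marker of the tubules was looked up, since names exist only for transcripts that the study listed as changed. The part of tubule RNA in the levels of these members was not tested.

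Named reproductive tract markers were lower at 40 days. A marker that the study did not list as changed has no name and could not appear, so named markers do not measure tissue content. The 5 named of 23 testis markers averaged 7.41 to 8.51 at 40 days and 8.52 to 9.95 at 10 days, and none of them was higher at 40 days. Fat body markers were mixed: of 10 listed, 2 were named, and Lsp2 differed by −1.83 while apolpp differed by 1.3. The part of attached fat body in any member's level was not tested. Of the 10 cardiac identity genes listed, none was among the named transcripts. Their levels were not looked up, so the labelled tissue was not checked by them.

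Large rises outside immunity included genes of little described function. The noncoding RNA lncRNA:CR32368 read 10.54, 9.62, 11.09 and 12.03 at 40 days, against 7.04, 7.55, 6.69 and 7.78 at 10 days, 11.7-fold apart with all 8 probes separating the ages. CG7255 read 11.03, 11.12, 10.25 and 10.69 at 40 days, against 7.64, 8.19, 7.60 and 8.10 at 10 days, a difference of 2.89. CG30026 read 10.51, 10.82, 10.59 and 9.67 at 40 days, against 8.11, 7.71, 7.92 and 8.09 at 10 days. In these 3 no sample came within 1.5 log2 units of the other age.

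In CG9568 and CG3884 the samples of 10 days were themselves uneven. CG9568 read 10.18, 9.22, 9.77 and 9.80 at 40 days, against 6.43, 6.55, 9.15 and 8.28 at 10 days, so that 2 samples of 10 days were below the control level and sample C lay 0.07 below the lowest 40-day sample. CG3884 read 9.60, 9.28, 9.85 and 11.55 at 40 days, against 7.45, 7.52, 9.06 and 8.27 at 10 days. In both genes 10-day sample C was highest and D next, as in the run of 3 proteases. CG13510 and CG13511 adjoin each other, and the first differed by 1.58 while the second was at least 1.77-fold higher.

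Members of the matrix, stress kinase, cytochrome P450 and actin lists were few. Mmp1, a matrix metalloproteinase, read 9.01, 8.64, 9.42 and 8.84 at 40 days, against 7.54, 7.73, 7.60 and 7.36 at 10 days, in 1 of its 2 named transcripts, and the other transcript differed by 0.47. Sdc, the heparan sulphate proteoglycan syndecan, differed by 1.13 and 1.08 in its member transcripts and by 1.42 in another transcript, which was brighter than the limit. QC, a glutaminyl cyclase, differed by 1.85, and p38c, a stress-activated kinase, by 1.24 (at least 1.42-fold), the only member among 4 named genes of the JNK and p38 list.

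Cyp4ac1, a cytochrome P450, differed by 1.16 and was the only member among 10 named genes of that family. The actin group was uneven. Act5C, a cytoplasmic actin, read 9.42, 9.40, 10.39 and 9.04 at 40 days, against 8.80, 8.03, 9.03 and 7.93 at 10 days, which brought the ages within 0.01. The beta-thymosin gene cib, which regulates actin assembly, read 7.80, 7.93, 9.60 and 8.20 at 40 days, against 7.33, 7.37, 7.55 and 6.56 at 10 days in its brighter transcript. No lysozyme, chitinase, metallothionein or glutathione transferase gene was a member, with 6, 3, 2 and 3 of their listed transcripts named. MtnB differed by 3.97, MtnD by 2.12, GstD5 by 1.4 and Cht4 by 1.1, but their ages overlapped. The lysozymes CG6429 and CG6426 differed by 2.48 and 1.42 but were brighter than the limit at 10 days. Only the lysozyme CG14823 among these named transcripts was lower at 40 days, with a difference of −1.12. The 6 transcripts left out of the set by name include the C-type lectin CG7763 and the antimicrobial peptides AttC, DptB and Dro, so the counts of members in those families leave these out.

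The most even members at 40 days were pst, NT5E-2 and Nmda1, with ranges of 0.14, 0.20 and 0.22 over the 4 samples. The gene pst (pastrel), whose variants affect resistance to a picorna-like virus, read 9.40, 9.41, 9.29 and 9.28 at 40 days, against 7.95, 8.65, 7.64 and 8.16 at 10 days. NT5E-2, a nucleotidase of the cell surface, read 8.32, 8.32, 8.22 and 8.12 at 40 days, against 6.80, 7.05, 6.83 and 7.11 at 10 days, at least 2.13-fold. In both, the spread at 10 days exceeded that at 40 days. CHKov1, another locus associated with virus resistance, differed by 1.04 (at least 1.71-fold).

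Membrane traffic gave 3 members, picked after their values were seen. Syt7, a synaptotagmin that links calcium to membrane fusion, read 8.34, 8.21, 7.88 and 8.64 at 40 days, against 6.55, 7.15, 6.30 and 6.56 at 10 days, at least 2.17-fold. Scamp, a carrier membrane protein of secretory vesicles, read 9.55, 9.31, 9.04 and 9.49 at 40 days, against 7.74, 8.27, 7.64 and 8.01 at 10 days. Rala, a small GTPase of exocytosis, read 9.25, 9.15, 8.58 and 9.22 at 40 days, against 7.62, 8.32, 7.52 and 8.23 at 10 days. Sample C was the lowest of the 40-day samples in all 3, and the lowest of the 10-day samples as well.

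Single members of other functions included Nagk (N-acetylglucosamine kinase) with a difference of 1.44, Idgf1 (a chitinase-like growth factor) with 1.22, CtsL3 (a cathepsin) with 1.22, Lip4 (a lipase) with 1.21 and shf (a secreted factor for Hedgehog spreading) with 1.07. Members known here by a CG number alone differed by between 1.04, in CG32196, and 2.89, in CG7255.

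The members as a set spread more among the samples of 40 days than among those of 10 days. The range over the 4 samples of an age had a median of 1.04 at 40 days and 0.57 at 10 days, and it was wider at 40 days in 70 of 92 members. By the scanner files, the dyes of a 40-day letter come from different extracts and those of a 10-day letter from the same extract. If those files are right, ranges and SDs are not like for like between the ages. The 49 transcripts that met the same limits with a 10-day mean of at least 8.5 rose by a similar median of 1.42, with median ranges of 0.75 at 40 days and 0.70 at 10 days. No test was made between the sets, since their limits fix which values could enter. In 31 members every 10-day sample was below the control level, and the part of this in the narrower 10-day ranges was not tested. No range over all transcripts was computed, so the spread of old hearts in general cannot be read from the members.

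The highest 40-day sample was A in 20 members, B in 14, C in 35 and D in 23. The lowest was A in 14, B in 16, C in 17 and D in 45. Over all transcripts sample D was the highest of the 40-day samples in 41.7%, C in 26.9%, A in 23.0% and B in 8.4%. Sample D thus held the lowest 40-day value in 45 of 92 members. The share of all transcripts that were lowest in D was not computed, so this count has no matching background.

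In 17 members the highest 40-day sample led the next by at least 1. A sample here is a labelled letter, whose dye columns at 40 days may hold different extracts. Sample A led in 3, C in 7 and D in 7, and B in none. The 3 of sample A were Mur29B, a mucin-related gene, and the unnamed FBtr0085612 and FBtr0085614. FBtr0085612 read 12.37 in sample A and 7.79, 8.08 and 7.43 in B to D of 40 days, against 7.13, 7.06, 7.32 and 7.21 at 10 days. FBtr0085614 read 10.59 in sample A and 6.95, 7.52 and 6.83 in B to D of 40 days, against 6.74, 6.78, 6.68 and 6.74 at 10 days.

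For this pair the rises of 1.74 and 1.24 became 0.59 and 0.36 without sample A, and in FBtr0085614 no probe separated the ages. Sample C led in Srg3, Spn88Eb, both transcripts of cib and of CG8620, and 1 of fax. Sample D led in Nazo, CG3884, CG12780, Srg2, CG15152, CG12824 and the remaining unnamed transcript. Without its leading sample the difference of the 17 members ran between 0.36 and 2.22, and it was under 1 in 11 of them.

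**Figure D3:**
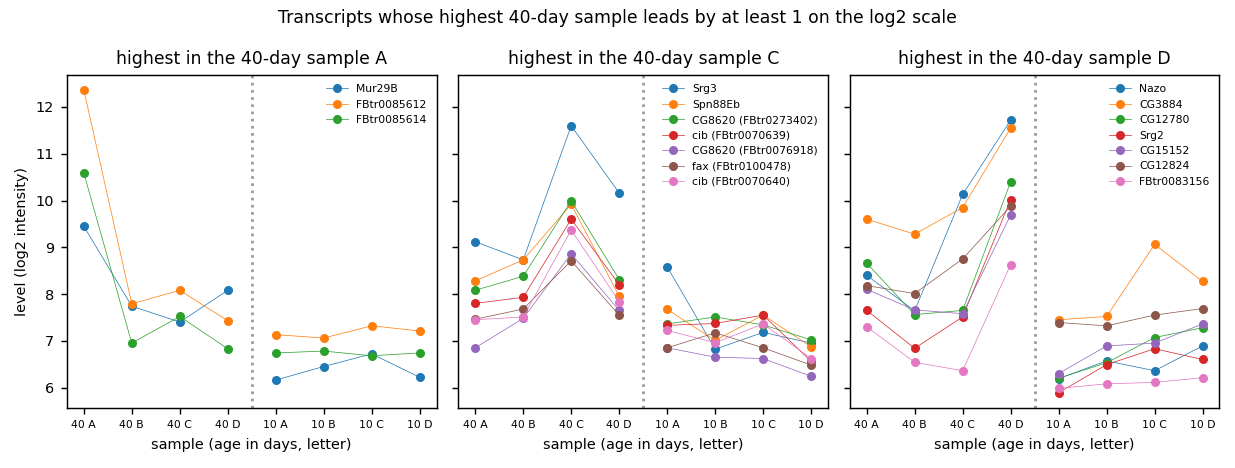
Log2 intensity in each sample (40 days left, 10 days right of the dotted line) of the 17 members whose highest 40-day sample leads the next by at least 1, in panels by the leading sample (A, C or D). Thin lines only help to follow a transcript; FBtr0085612 reaches 12.37 in sample A while its other samples lie between 7.06 and 8.08.

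The rise depended on where along the transcript a probe lies. Counted from the 5′ end, the median rise of the members was 0.59 at the first probe, 1.37 at the fourth and 2.25 at the eighth. The 4 probes nearest the 3′ end gave a median rise of 2.03, the 4 nearest the 5′ end 0.94, and the 3′ side was larger in 86 of 92 members. The same direction held in 45 of 49 transcripts with a brighter 10-day mean, with medians of 1.66 and 1.28, and over all transcripts the median difference stayed between −0.01 and 0.02 at every position.

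Levels followed position too. At the eighth probe the members' median was 10.61 at 40 days and 7.89 at 10 days, while at the first probe it was 6.96 at 40 days and 6.36 at 10 days. Read on the 3′ probes alone, 21 members were below the control level in all 4 samples of 10 days and 42 in none, and no member was below it in all 4 samples of 40 days. Read on the 5′ probes alone, 12 members were below it in all 4 samples of 40 days and 59 in all 4 of 10 days. DptA, CG18563, Nazo, NimC4, Sid, AttA and Mtk were below the control level at 10 days on either end. The RNA was amplified before labelling, and the part of amplification in this gradient was not tested.

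**Figure D4:**
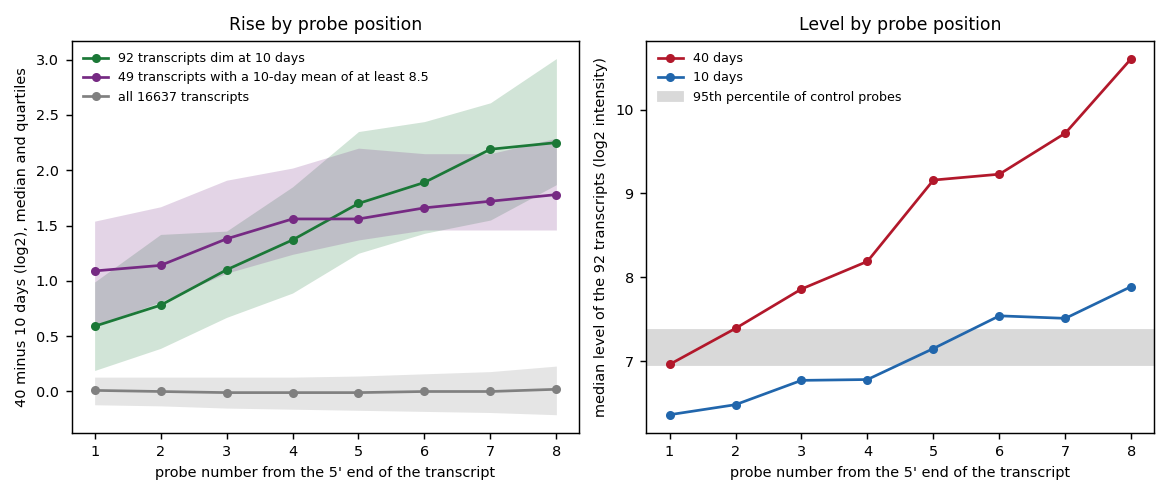
Left, difference between 40 and 10 days (log2; median line, quartile band) by probe number from the 5′ end for the 92 members, the 49 transcripts brighter at 10 days and all transcripts. Right, median level of the members at each probe at 40 days (red) and 10 days (blue) with the range of the 95th percentile of control probes (grey); the members' rise is 0.59 at probe 1 and 2.25 at probe 8, and the 10-day medians leave the grey band from probe 6 on.

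The probes of a transcript did not all carry its rise. Of 736 probes of the members, 517 had every 40-day sample above every 10-day sample, against 2.53% of all probes, and at least 4 probes did so in 81 members against 1.54% of transcripts. All 8 probes did so in 16 members and fewer than 4 in 11. The rule was set on the mean of these same probes, so these counts are no separate support for the members. The transcripts of Sdc averaged 9.36 and 9.30 at 40 days, against 8.23 in both at 10 days, and those of CG8620 averaged 8.69 and 7.71 at 40 days, against 7.31 and 6.59 at 10 days. Transcripts of the same gene are not independent of each other.

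The dyes differed in the size of the rise. The median was 1.62 in Cy3 and 1.25 in Cy5, the rise was at least 1 in Cy3 for all 92 members and in Cy5 for 67, and the widest disagreement was 1.11. On the scanner intensities, normalised separately from the deposited value table, the 40-day channel was brighter on all 8 arrays for 91 members, against 5.3% of all transcripts, and on 7 arrays for 1 transcript of cib. The members' median ratio on single arrays lay between 1.20 and 1.54. These arrays hold the same RNA and so say nothing further about age.

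Across all transcripts, limma called 50 higher at 40 days (0.301%) and 6 lower (0.0361%) at an adjusted p under 0.01, and 28 of the 50 were members. Without a replicate letter it called 4 (A), 3 (B), 3 (C) or 31 (D) higher, and with the letters as a block 4 higher and 0 lower. At 0.05 it called 121 higher (0.727%) and 17 lower (0.102%), and 52 of the 121 were members. These counts used the values that chose the members and carry no further weight. At 0.01, 9 of the 19 gene lists held a transcript called higher, none held 1 called lower, and 10 held no call. The calls were 6 of 17 serine proteases, 5 of 16 antimicrobial peptides, 3 of 10 tetraspanins, 2 of 8 PGRP transcripts, and 1 each of 6 lysozymes, 6 engulfment receptors, 3 C-type lectins, 7 septate junction and 8 matrix transcripts. The lists without a call included Toll signalling (17 transcripts), actin regulators (15), cytochrome P450 (10), serpins (5), JAK/STAT (4) and Imd signalling (3). The Toll transcripts belong to only 6 named genes, and most of them are transcripts of spz. At 0.05 Sr-CI, an engulfment receptor, was called lower. The names themselves exist only for transcripts that the study listed as changed, so the direction of a list is not independent evidence.

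At the limits of the rule neighbouring values were close. The smallest rises inside were those of su(w[a]), a splicing regulator, at 1.001, and cib, at 1.003, and the largest just outside were CG30151 at 0.973 and Nepl12 at 0.966. By the 10-day mean, Act5C at 8.45 and PGRP-SD at 8.38 lay inside, and Rdh1 at 8.52 and CG8353 at 8.59 lay outside. By the gap between the ages, CG8620 at 0.006 and Srg2 at 0.012 lay inside. Listericin, an antibacterial peptide, at −0.028 and CG15369 at −0.062 lay outside, the first with 11.07, 8.87, 9.42 and 9.99 at 40 days, against 7.51, 7.53, 7.11 and 8.90 at 10 days. Failing 1 limit alone, 362 transcripts rose by less than 1, 49 were too bright at 10 days and 58 overlapped.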

How the data were processed

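RNA of dissected cardiac tubes was amplified (MessageAmp), labelled indirectly with Cy3 and Cy5 and hybridised to 2-colour NimbleGen arrays. The authors deposited scanner intensity per probe and channel from NimbleScan 2.5.26, and a table of normalized values on the linear scale, made by lowess, with column medians between 70.4 and 99.9; its further scaling is not given in the sources used here. Of the 16 value-table columns, 8 followed the scanner channel of their own label and 8 another channel of the same age and dye (r at least 0.9916, next best at most 0.9407). The ages were thus the same by either. At the older age, each letter's Cy5 column followed its own channel and its Cy3 column that of another letter. At the younger age, B and C were exchanged in both dyes. Labels and scanner files thus disagree on which extract several samples are, and which is right was not tested. Replicate letters were taken from the labels, so a sample value of the older age may average different extracts. Values of single samples and results without a letter rest on these labels. The files hold 137099 probes, 4100 of them random controls; 16617 of 16637 transcripts have 8 probes.

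Here the value table was logged (log2), averaged over probes and over the dye columns of a sample (n = 4 per age), and transcripts were chosen by the limits stated. The array number limits precision. limma 3.58.1 in R 4.3.3 was fitted over all transcripts with Benjamini-Hochberg adjustment. Tested on data simulated for the 40 over 10 days comparison with 16637 transcripts, the fit called 62 of 100 with a simulated log2 change of 1, 87 of 100 with a change of 2 and 1 of 16437 with none. Scanner intensities were also normalised with normexp (offset 50) and loess. Python 3.11.15, numpy 2.4.6, pandas 2.3.3, scipy 1.17.1 and matplotlib 3.10.9 were used.

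Transcripts took names through the probe identifiers of the study's list of probes (701). For entries of its list of genes that were absent from those probes, names came by matching mean signal and fold change (467, with 1 entry matched after shuffling). Symbols were updated by RefSeq (Release 6 plus ISO1 MT). The fold changes and p-values of these lists were not otherwise used.

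The members and the lists of genes were chosen with earlier results of these data known. Named genes were the 20 named members of largest rise, up to 6 members per list, the 2 nearest each limit on either side, the 3 widest and 3 narrowest ranges at 40 days, and neighbours or relatives; members led by 1 sample or serving as single examples (such as QC, CHKov1, Idgf1 and Nagk) were chosen after their values were seen. The 6 transcripts left out are not described here. Alternatives covered probe averaging, dye, scale, normalization, the limits, and leaving out replicates.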

Additional observations from a re-analysis of the deposited data

Results flagged for a closer look

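Among the 184 groups of 4 samples (92 members at each age), 7 held a sample far from the other 3 by Dixon's ratio at its 95% critical value. The members were chosen for no overlap between the ages and share the same samples, so this count cannot be set against a chance rate. At 40 days, FBtr0085612 read 12.37 in sample A with the nearest other sample at 8.08, and a transcript of CG8620 (FBtr0273402) read 9.99 in sample C with the nearest at 8.38. Low samples at 40 days were CG30083 at 7.39 in D (nearest 7.74), Sdc (FBtr0071706) at 9.13 in D (nearest 9.42) and Rala, a small GTPase, at 8.58 in C (nearest 9.15). At 10 days, CG18563 read 6.05 in sample C with the nearest at 6.46, and CtsL3, a cathepsin, read 7.54 in sample A with the nearest at 7.16. No sample was far from the others in more than 2 members.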

How the results depend on the processing

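The number of members was 92 and lay within 1.5 times of that under 16 alternatives, those added after seeing the data among them. It was 157 on Cy3 columns alone (91 of the 92 among them), 55 on Cy5 columns alone, 151 when averaging on the linear scale (77 kept), 43 with a rise of at least 1.5 and 150 when the ages might overlap. Without 1 replicate letter of both ages it ran from 87 to 154, the highest without B, and between 77 and 87 of the members were kept. Without 1 sample of 1 age, added after seeing the data, it ran from 91 to 121. The 3′ probes alone, also added, gave 127, of which 63 were members.

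The members' median rise of 1.44 was 1.62 in Cy3, 1.25 in Cy5, 1.28 on array 1 alone, 1.20 on array 7 alone, and 2.03 on the 3′ probes. It ran from 1.42 to 1.56 without each replicate letter; its direction is fixed by how the members were chosen. The cause of these shifts was not tested. limma's 50 higher and 6 lower transcripts became 121 and 17 at an adjusted p under 0.05. Scanner intensities (normexp and loess) gave 24 higher, and there a replicate letter may stand for other extracts than in the value table. On the value table, a trended robust prior gave 3 lower. Without each replicate letter the counts ran from 3 to 31 higher and from 0 to 1 lower, lowest without B or C and 4 without A, with fewer samples in the fit.

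With the letter as a replicate block 4 were higher and 0 lower at 0.01, beside 1785 transcripts at an unadjusted p under 0.05 (1776 without the block). The letters do not pair the samples: the deviations of same-letter samples correlated at −0.188 for A, −0.031 for B, 0.468 for C and 0.247 for D. Levels within the range of the control probes limit the size of every rise given as a lower bound.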
